A study of Mus musculus with 16 samples.

Results

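The left ventricle 24h after abdominal surgery was compared with the left ventricle at 0h, the time point that served as the start of the series. The comparison takes in 8 of the 16 RNA-seq libraries and 16866 of the 57143 genes of the deposited table, those with a mean of 0.5 TPM (the authors' length-corrected transcript share, scaled to the same total in every library) or more over all libraries. All 8 libraries came from the left ventricle of male C57BL/6 mice that had abdominal surgery under sevoflurane, and the 0h mice carry the same surgery label, so what both groups share cannot be seen here. Each group held 4 libraries. The labels do not say that each library is a separate mouse, so p-values measure the spread between libraries, which may be technical. The study modelled heart muscle injury after non-cardiac surgery, and the other 8 libraries, from 3h and 7d, entered the fit to estimate that spread.

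The heart burns mainly fatty acids. Lipases release them from triglyceride, the receptor PPARα switches on the genes that import and oxidise them, and the respiratory chain turns the reduced cofactors into ATP. Operations are known to be followed by a rise in stress hormones and by an acute phase response, in which interleukin-6 acts through STAT3. Oxidants are met by NRF2 and its targets, and worn proteins and organelles are removed by the proteasome and by autophagy.

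At 24h, some members of the lists for triglyceride breakdown and fatty acid use, antioxidant defence and glutathione conjugation, the proteasome, autophagy, the respiratory chain and the acute phase response were called higher than at 0h. Lower calls included 7 of 16 apelin and tip cell genes, 9 of 35 cell cycle genes, 9 of 24 collagens, 10 of 38 other matrix genes, 10 of 21 tubulins and 4 of 10 MHC class II genes. In edgeR's quasi-likelihood test 2933 of the 16866 genes, 17.4%, had a Benjamini-Hochberg adjusted p under 0.05, the threshold for a call. Of these, 1552 genes, 9.2% of those tested, were higher at 24h, and 1381 genes, 8.19%, were lower. In TPM, 717 genes, 4.25%, lay above 0h in every 24h library without overlap and 2863, 17%, lay below it. The TPM do not carry the TMM scaling of the test. In limma on log2(TPM + 1) the median log2 ratio over all genes was -0.19. Lying below 0h in TPM, here and for the genes below, thus depends partly on the scale. The log2 ratio of 24h over 0h was 1 or more in size for 283 of the higher and 296 of the lower genes. The median log2 ratio over all genes tested was -0.01, the value against which the medians of gene lists below are to be read. Counts of list members called are likewise to be read against the shares over all genes, 9.2% higher and 8.19% lower.

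The libraries held 9105939 to 11318253 counts at 24h and 8313655 to 12649395 counts at 0h. Markers of several cell types moved with time. Markers of ventricular cardiomyocytes summed to 98000 to 111000 TPM at 24h and 113000 to 118000 TPM at 0h, with 1 of 12 markers called, Actc1, which was lower, and a median log2 ratio of 0.15 over the 12 markers. Myl7, the atrial myosin light chain, had 63.8, 126, 6.97 and 159 TPM at 24h, against 0, 1.1, 9.59 and 0 TPM at 0h (log2 ratio 5.48 ± 1.59 SE, adjusted p = 0.034), and 4 of 9 atrial markers tested were higher, although the list's summed TPM overlapped between the groups (616 to 1120 at 24h, 559 to 1550 at 0h). That count of 4 (list marker atrial) was 1 without 24h replicate 1 or 4 or 0h replicate 1, 2 or 4, 2 without 24h replicate 2 and 6 without 24h replicate 3. The 24h replicate with the least Myl7 was replicate 3, and 3h replicate 3 held 146 TPM. Of 6 mesothelial markers tested 3 were lower, with sums of 6.44 to 10.8 TPM at 24h and 14.7 to 24.5 TPM at 0h, and Msln, which marks the cells that cover the heart, had 1 count at 24h against 65 at 0h. Neutrophil markers, 7 of 13 called higher, summed to 80.9 to 346 TPM at 24h and 13.7 to 16 TPM at 0h, and 4 were called without 0h replicate 2 (list marker neutrophil). In bulk tissue, fewer cells of a type and less RNA per cell cannot be told apart.

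The 24h libraries lay at different distances from 0h. The called genes were chosen with these same libraries, so libraries that drive the calls score high, and the ranking is a description. Over the 2933 called genes, the median log2 difference from the 0h mean, taken in the direction of the call, was 0.773 in 24h replicate 1, 0.475 in replicate 2, 0.363 in replicate 3 and 0.732 in replicate 4. Replicate 3 lay nearest to 0h for 58.1% of called genes. Without it 4262 genes were called, and without 24h replicate 1 or 4 the count was 1575 or 1767. With log Myl7 as a covariate only 86 genes were called. Of the 2933 genes, 2929 kept their direction. Their median change in the direction of the call was 0.521, against 0.588 without the covariate, on the log2 scale. With 24h replicate 3 as the only 24h library 2867 kept their direction, with a median of 0.368. The 2933 genes were chosen with these same libraries, so a kept direction adds no support. Time and the Myl7 level cannot be told apart in these libraries.

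**Figure D1:**
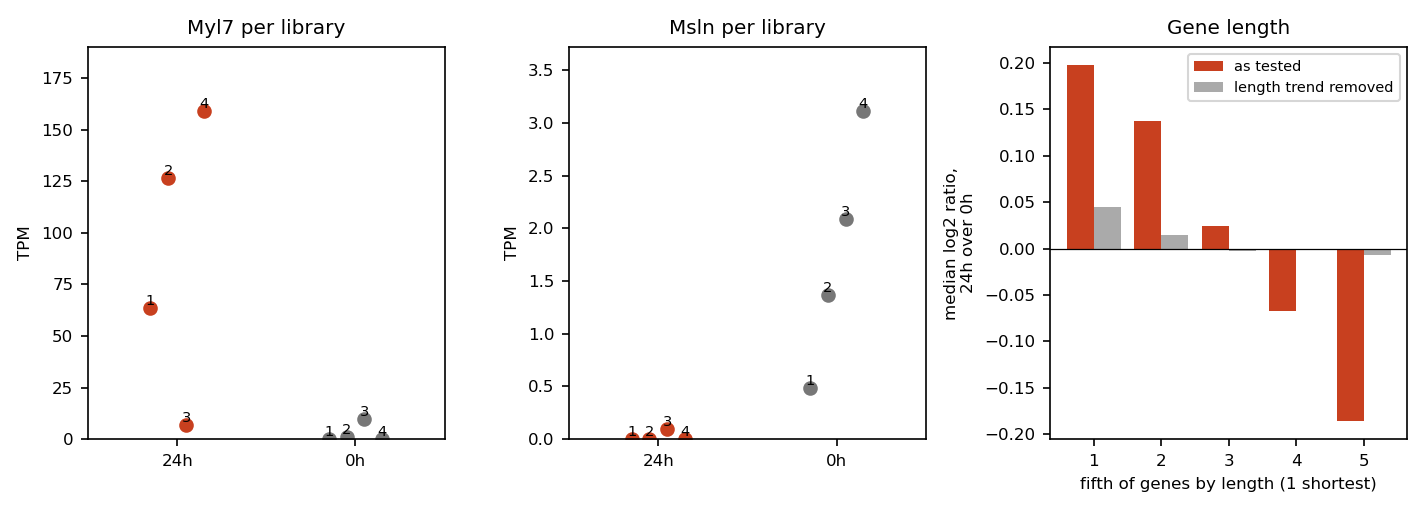
TPM of the atrial marker Myl7 and the mesothelial marker Msln in each 24h and 0h library (digits give the replicate), and the median log2 ratio of genes in 5 classes by length, each of 20% of the genes, before and after a length trend was removed. Myl7 reaches 159 TPM at 24h and at most 9.59 TPM at 0h, Msln is near 0 at 24h, and the shortest 20% of genes have a median of 0.20 against -0.19 in the longest.

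Gene length also moved with time. The median log2 ratio was 0.20 in the shortest 20% of genes and -0.19 in the longest, and 4.51% of the longest genes were called higher against 19% called lower. With that trend removed 2541 genes were called, 1532 higher and 1009 lower. The median length was 1569 bases in complex I genes, 2820 in proteasome genes and 7242.5 in collagens, against 3545 over all genes tested, so counts with the trend removed are given beside those lists. It was 6936 bases in calcium handling, 7185 in insulin and growth factor and 1601 in glutathione transferase genes. Other matrix proteins had a median of 5955.5 bases, autophagy and mitophagy genes 5700 and mitochondrial ribosome genes 2213.5. Counts for these lists, and for any list without a count with the trend removed, are given as tested only and may follow gene length. On another scale, library totals without TMM scaling, the median over all genes was -0.12 and the calls split into 968 higher and 2192 lower; changes below are relative to the TMM scale. Limma on log2(TPM + 1), whose median over all genes was -0.19, called 643 higher and 2900 lower.

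**Figure D2:**
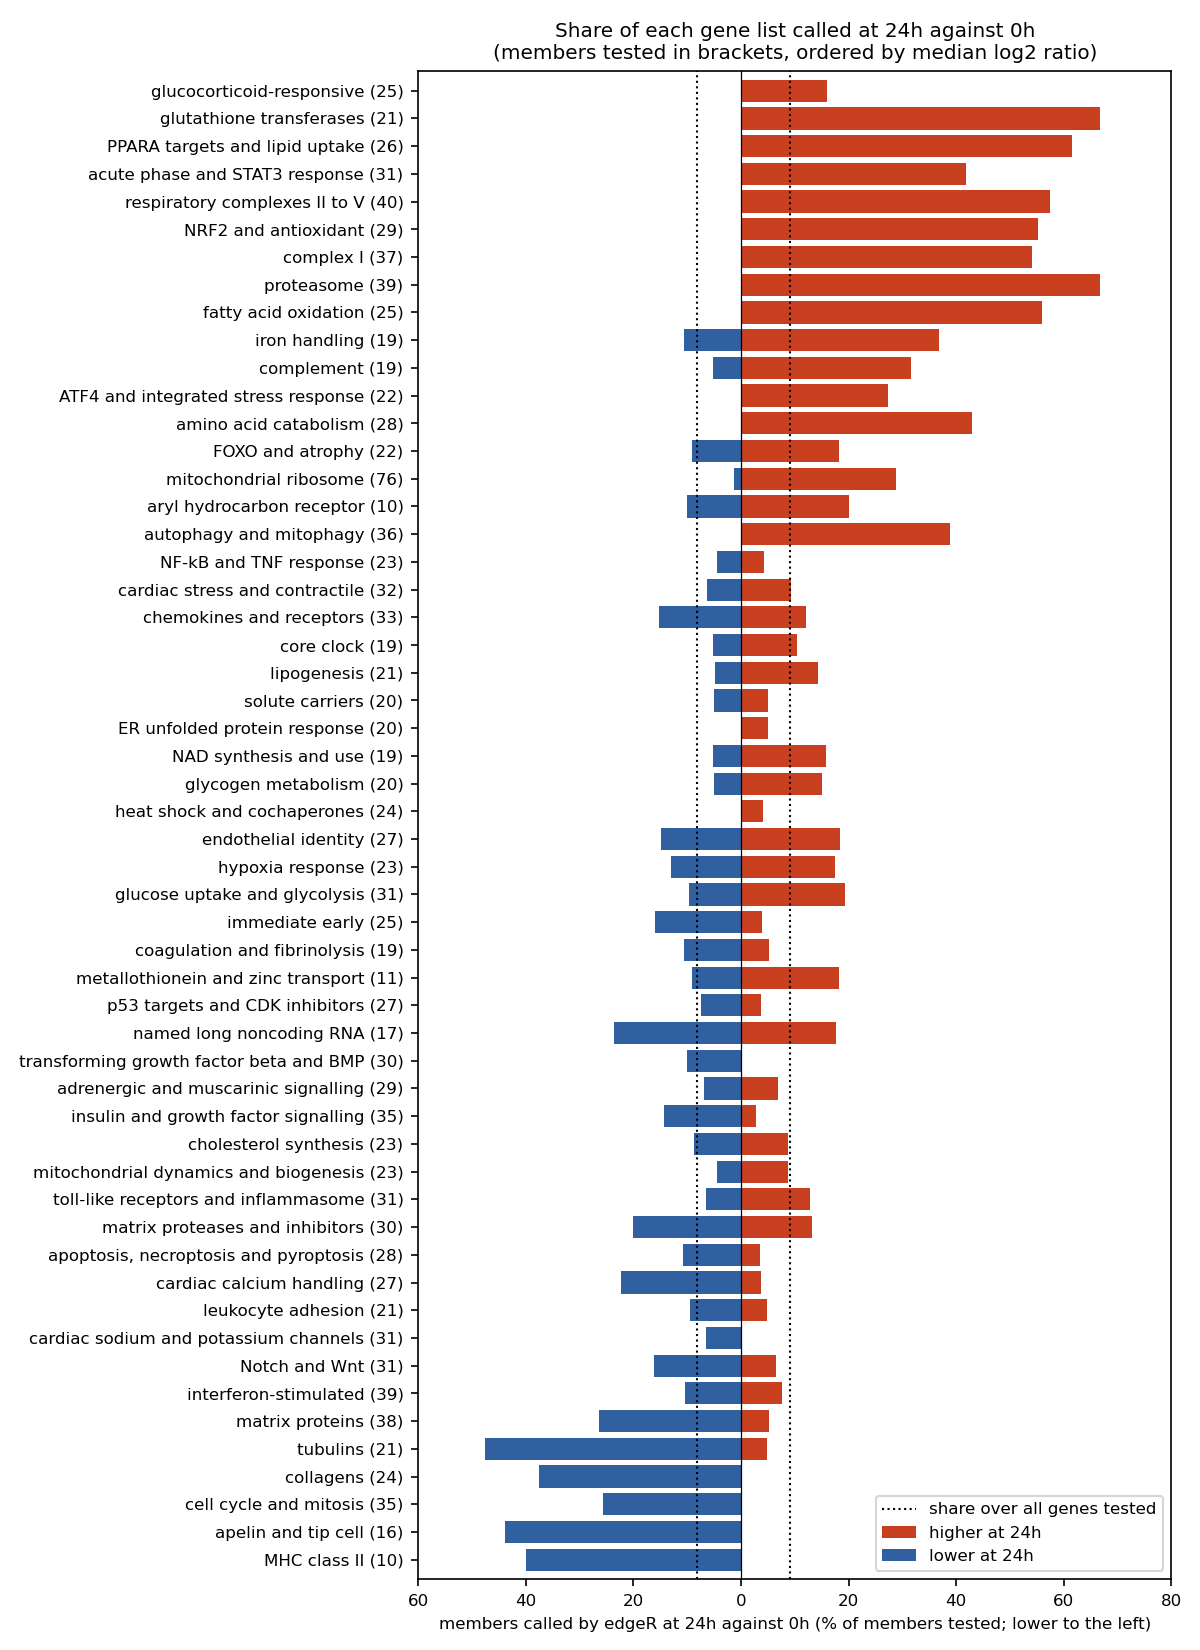
Percentage of the tested members of each gene list called higher (right) or lower (left) at 24h against 0h, with lists ordered by their median log2 ratio and dotted lines at the shares over all genes, 9.2% higher and 8.19% lower. The lists of PPARα targets, fatty acid oxidation, glutathione transferases, proteasome and respiratory chain extend to the right with no member called lower. Tip cell, collagen, cell cycle, MHC class II and tubulin lists extend to the left.

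Genes of fat release and fatty acid use rose. Among 26 PPARα targets and lipid uptake genes tested 16 rose and none fell, with a median log2 ratio of 0.63. Pnpla2 encodes adipose triglyceride lipase, which makes the first cut in stored fat, and had 942, 885, 929 and 903 TPM at 24h, against 366, 340.2, 396 and 309 TPM at 0h. The 24h libraries lay close together and far above those of 0h (log2 ratio 1.6 ± 0.13 SE, adjusted p = 1.4e-07). Hormone-sensitive lipase, Lipe, had 62, 62.1, 44 and 52.6 TPM at 24h, against 42.8, 34.9, 38.8 and 24.9 TPM at 0h, again without overlap (log2 ratio 0.87 ± 0.14 SE, adjusted p = 0.00036). The lipid droplet coats Plin2 (log2 ratio 1.1 ± 0.22 SE, adjusted p = 0.0031), Plin4 (log2 ratio 0.58 ± 0.17 SE, adjusted p = 0.022) and Plin5 (log2 ratio 0.51 ± 0.16 SE, adjusted p = 0.029) rose less evenly, and all 3 overlapped between the groups. Uptake genes rose too: Cd36, the fatty acid translocase, had 2217, 2187, 2236 and 2185 TPM at 24h, against 1860.1, 1824, 1934 and 1538 TPM at 0h (log2 ratio 0.53 ± 0.12 SE, adjusted p = 0.0045). Lpl, which frees fatty acids from circulating lipoproteins, had 2479.6 ± 359.7 TPM at 24h and 1751 ± 156 TPM at 0h (SD, n = 4 each; log2 ratio 0.73 ± 0.15 SE, adjusted p = 0.0029). Fabp3, the heart's cytosolic fatty acid carrier, had 19427, 18729, 18139 and 19165 TPM at 24h, against 12692, 14909, 14372 and 13261 TPM at 0h (log2 ratio 0.67 ± 0.13 SE, adjusted p = 0.0013).

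The acyl-CoA thioesterases Acot1 (log2 ratio 2.53 ± 0.27 SE, adjusted p = 4.8e-05) and Acot2 (log2 ratio 0.94 ± 0.12 SE, adjusted p = 4.0e-05), which free fatty acids from coenzyme A, rose as well, with the reservation that they are near-identical copies whose reads the counting may have split. Of 25 fatty acid oxidation genes 14 rose and none fell (median 0.36). The mitochondrial carnitine steps rose at Slc25a20, the carnitine-acylcarnitine carrier (log2 ratio 0.60 ± 0.11 SE, adjusted p = 0.00091), and at Cpt2 (log2 ratio 0.72 ± 0.14 SE, adjusted p = 0.0015). Cpt1b, the entry step, had 7.03 ± 2.57 TPM at 24h and 7.41 ± 1.05 TPM at 0h (log2 ratio 0.12 ± 0.23 SE, adjusted p = 0.77). In Cpt2 all 24h libraries lay above 0h, and Cpt1b overlapped. Cpt1b rested on 333 counts at 24h and 317 at 0h, against 13014 and 8307 for Cpt2. Whether the counting lost reads of Cpt1b was not tested, so its result says little about the entry step. The peroxisomal gene Ehhadh rose with overlap (log2 ratio 1.08 ± 0.29 SE, adjusted p = 0.021). Medium- and very-long-chain dehydrogenases, Acadm and Acadvl, changed by 0.36 and 0.37.

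Other PPARα targets were not called. Pdk4, the kinase that closes glucose oxidation, had 2223, 1076, 484 and 1618 TPM at 24h, against 671, 679, 833 and 279 TPM at 0h, with replicate 3 below every 0h library but 1 (log2 ratio 1.42 ± 0.49 SE, adjusted p = 0.063). Angptl4, an inhibitor of lipoprotein lipase, had 29 ± 20.5 TPM at 24h and 17.5 ± 7.68 TPM at 0h (log2 ratio 0.98 ± 0.59 SE, adjusted p = 0.28). Ppara itself had 9.37, 12.7, 29.6 and 9.86 TPM at 24h, against 28.9, 30.6, 42 and 29.6 TPM at 0h (log2 ratio -0.91 ± 0.30 SE, adjusted p = 0.052). Neither Angptl4 nor Ppara separated the groups. In lipogenesis 3 of 21 rose and 1 fell (median 0.08). Scd4, a desaturase, rose (log2 ratio 1.82 ± 0.40 SE, adjusted p = 0.0080), while Scd1 (log2 ratio -0.29 ± 0.16 SE, adjusted p = 0.21) and Fasn (log2 ratio 0.40 ± 0.17 SE, adjusted p = 0.10) were not called. In cholesterol synthesis 2 of 23 rose and 2 fell, with a median of -0.10 that was 0.06 without 0h replicate 1. The falls numbered 1 without 24h replicate 1, 2 or 4 or 0h replicate 1 or 3 and 6 without 24h replicate 3, and the rises 1 without 24h replicate 1 or 0h replicate 1 or 2. Fdft1, squalene synthase, rose, with 93.9, 66.4, 64.7 and 76 TPM at 24h, against 42.9, 34.7, 36.9 and 34.2 TPM at 0h (log2 ratio 1.26 ± 0.13 SE, adjusted p = 2.7e-06). In Fdft1 every 24h library lay above 0h.

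Many antioxidant genes rose as well. Of 29 NRF2 and antioxidant genes 16 rose and none fell (median 0.40); the count was 10 without 24h replicate 4 or 0h replicate 1. Catalase, Cat, which breaks down hydrogen peroxide, had 522, 499.9, 522 and 562 TPM at 24h, against 277, 264, 295 and 238 TPM at 0h (log2 ratio 1.2 ± 0.13 SE, adjusted p = 2.7e-06). Plasma glutathione peroxidase Gpx3 had 1086, 963, 647 and 1008 TPM at 24h, against 393, 371, 441 and 343 TPM at 0h, without overlap (log2 ratio 1.5 ± 0.21 SE, adjusted p = 0.00029). The enzyme that starts glutathione synthesis has 2 subunits. The modifier Gclm rose, with 41.8, 36.9, 31.9 and 43.3 TPM at 24h, against 16.5, 12.6, 18.6 and 12.3 TPM at 0h (log2 ratio 1.6 ± 0.14 SE, adjusted p = 3.4e-07). The catalytic Gclc was not called, with 13, 14.5, 13.4 and 14.1 TPM at 24h, against 14.7, 14.4, 18.9 and 13.8 TPM at 0h (log2 ratio 0.06 ± 0.14 SE, adjusted p = 0.82). Hmox1, heme oxygenase, had 235, 153, 25 and 135 TPM at 24h, against 33.2, 20.3, 32.5 and 24.6 TPM at 0h; its replicate 3 sat within the 0h range and the other 3 were well above it (log2 ratio 2.57 ± 0.61 SE, adjusted p = 0.014).

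Glutathione transferases attach glutathione to reactive compounds, and 14 of 21 tested rose while none fell (median 0.64). Mgst1, the microsomal transferase, had 409.7, 297, 192 and 374 TPM at 24h, against 52.2, 61.2, 60.1 and 68.4 TPM at 0h, without overlap (log2 ratio 2.64 ± 0.33 SE, adjusted p = 0.00033). Gsta4, which clears the lipid peroxidation product 4-hydroxynonenal, had 447, 293, 239 and 417 TPM at 24h, against 181, 157, 177 and 198 TPM at 0h (log2 ratio 1.22 ± 0.19 SE, adjusted p = 0.00055). Gstm1 had 690.5 ± 29.7 TPM at 24h and 433 ± 44.7 TPM at 0h (log2 ratio 0.90 ± 0.15 SE, adjusted p = 0.00036), and the cytosolic families contain close copies whose reads may be shared. In the aryl hydrocarbon receptor list Cyp1a1, its classic target, fell: no 24h library held a read, against 42 counts at 0h, which puts it at least 14.4-fold lower at 24h (floor of 3 counts over the group, adjusted p = 0.019).

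Metallothioneins bind zinc and copper and answer to metals, oxidants and glucocorticoids. Mt2 had 1788, 1242, 336 and 2543 TPM at 24h, against 145, 141, 412 and 88.3 TPM at 0h, and Mt1 had 2152, 1119, 461 and 1856 TPM at 24h, against 347, 308, 462 and 229.8 TPM at 0h. In both genes 24h replicate 3 fell within the 0h range and the other 3 libraries lay above it (Mt2: log2 ratio 3.21 ± 0.65 SE, adjusted p = 0.0062; Mt1: log2 ratio 2.33 ± 0.43 SE, adjusted p = 0.0037). The 2 genes are close neighbours and near-copies, so the split between them is uncertain. Of the 11 genes tested in the list with zinc transporters, 2 rose and 1 fell, Slc30a5 (log2 ratio -0.29 ± 0.10 SE, adjusted p = 0.041). The 250 bases before the Mt2 start are shown because it had the larger log2 ratio of the 2 genes and such genes carry a known DNA element for metals. They lie at chr8:94172368-94172617 on the plus strand (GRCm38.p6, RefSeq). Capitals mark the core of the metal response element, TGCNCNC, searched on both strands, which matched 5 times there without overlap. The same window before the Mt1 start held 1 match. Both windows are set by the annotated start, so the counts do not compare the full promoters. A check for the first bases of a known transcript near the window's end found them for Mt1 and not for Mt2.
Mt2: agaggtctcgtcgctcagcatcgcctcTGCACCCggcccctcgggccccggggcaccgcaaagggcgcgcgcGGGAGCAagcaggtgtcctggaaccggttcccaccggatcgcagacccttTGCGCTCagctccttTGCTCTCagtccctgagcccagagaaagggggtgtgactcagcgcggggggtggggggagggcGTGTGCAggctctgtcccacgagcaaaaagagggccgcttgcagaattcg
Of 32841 RefSeq promoter windows of the same length 44.4% hold at least 1 such match and 1.28% hold 4 or more, so the match is a description of the letters and shows no binding.

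Iron storage and export genes rose, while the uptake receptor fell. In the iron list 7 of 19 rose and 2 fell (median 0.33), and the falls numbered 1 without 24h replicate 1, 2 or 4 or 0h replicate 4 and 5 without 24h replicate 3. The ferritin chains Fth1 (3928, 2959, 2709 and 3273 TPM at 24h, against 2143, 2121, 2015 and 2131 TPM at 0h; log2 ratio 0.85 ± 0.17 SE, adjusted p = 0.0020) and Ftl1 (log2 ratio 0.92 ± 0.16 SE, adjusted p = 0.00055) rose without overlap, and so did Slc40a1, the iron exporter ferroportin (16.5, 15, 18.4 and 19.2 TPM at 24h, against 10.1, 11.4, 9.34 and 10.7 TPM at 0h; log2 ratio 0.96 ± 0.13 SE, adjusted p = 4.2e-05). Tfrc, the transferrin receptor that brings iron in, had 3.89, 7.0, 9.68 and 4.92 TPM at 24h, against 35.5, 20.4, 20.5 and 34.9 TPM at 0h, without overlap (log2 ratio -1.94 ± 0.37 SE, adjusted p = 0.0038). Ncoa4, which delivers ferritin to autophagy, fell by a smaller amount (log2 ratio -0.50 ± 0.15 SE, adjusted p = 0.026). Hepcidin, Hamp, the hormone that closes ferroportin, had 2.96, 4.63, 1.43 and 7.63 TPM at 24h, against 0.609, 0, 0 and 0 TPM at 0h (24 counts at 24h against 1 at 0h, a ratio of 23.4 with a 95% counting interval of 3.81 to 961, adjusted p = 0.032). The 24h replicates rank in the same order for Hamp as for the atrial marker Myl7. Hamp was highest, at 17.9 TPM, in 3h replicate 3, which was also high in Myl7. A link between them was not tested.

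**Figure D3:**
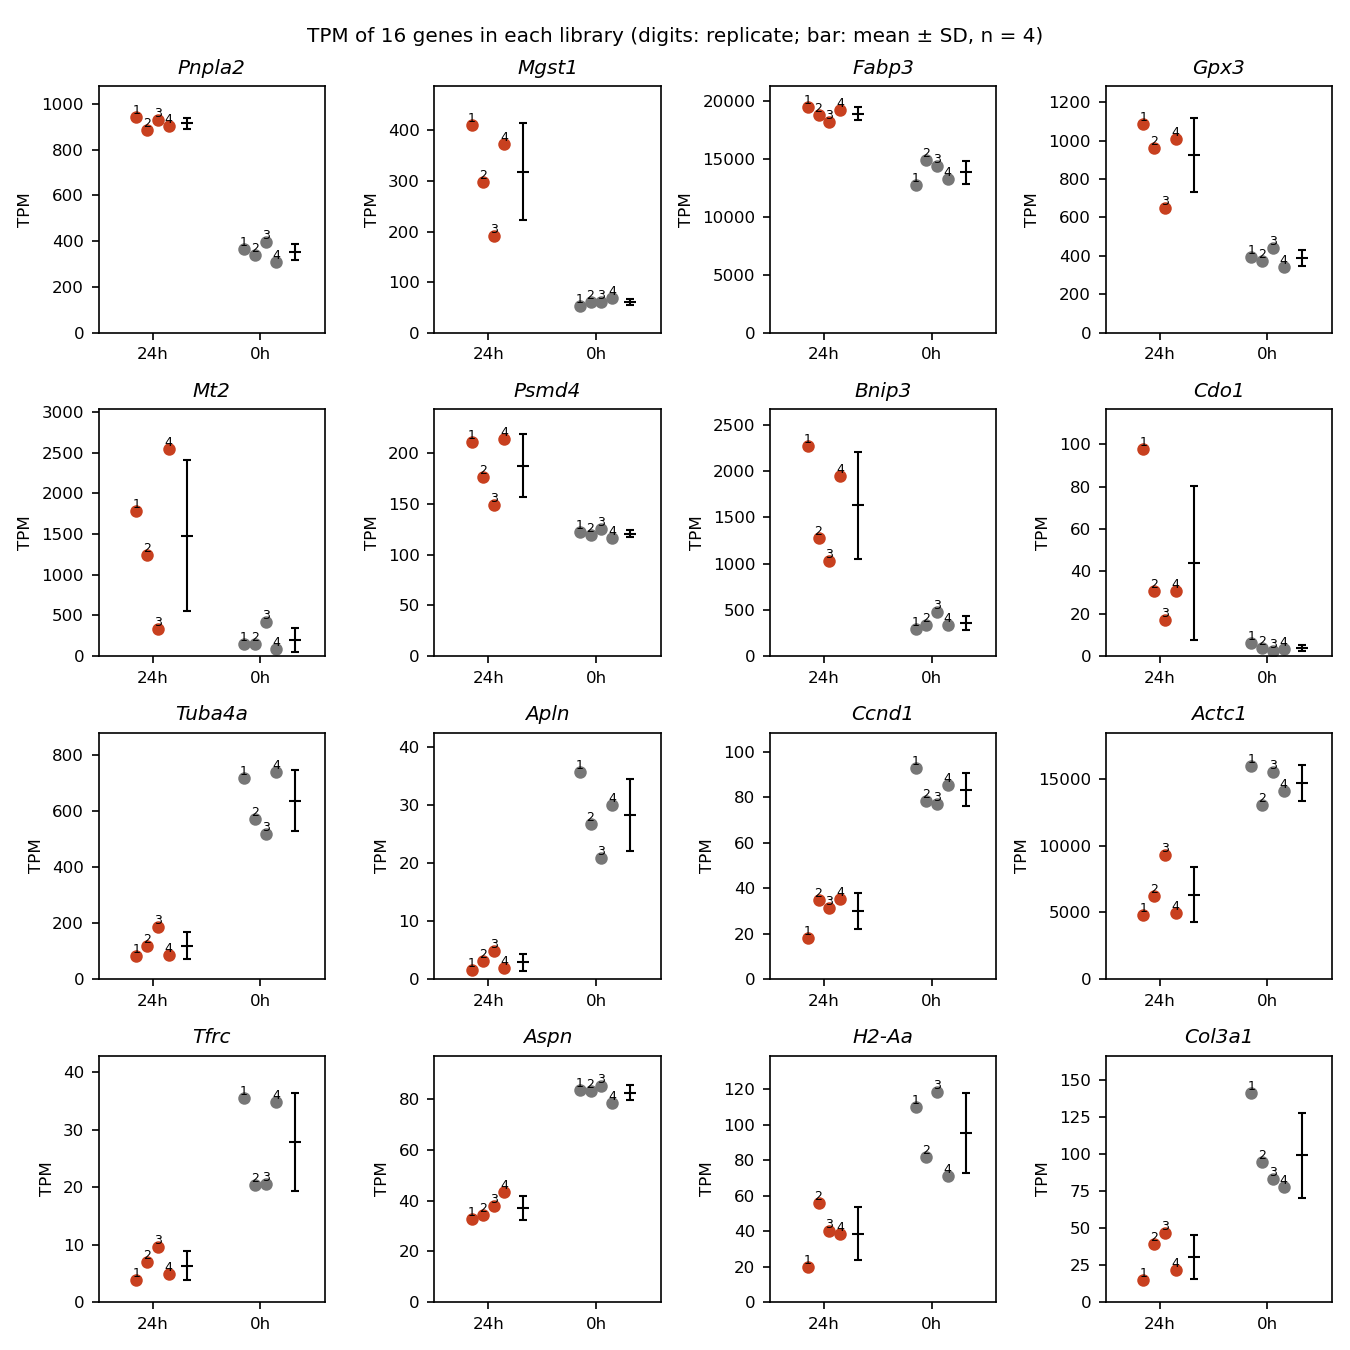
TPM of 16 genes in each 24h (left) and 0h (right) library, with digits for the replicate and the mean ± SD of 4 libraries beside the points. Pnpla2, Mgst1, Fabp3, Gpx3, Psmd4, Bnip3 and Cdo1 lie above 0h in every 24h library, Mt2 does so in 3 of 4, and Tuba4a, Apln, Ccnd1, Actc1, Tfrc, Aspn, H2-Aa and Col3a1 lie below 0h in every 24h library.

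Genes of protein breakdown rose. Of 39 proteasome genes 26 rose and none fell (median 0.39), by log2 values between 0.35 for Psmb3 and 0.88 for Psmd4, and 23 were called with the length trend removed. The count was 13 without 24h replicate 1 or 4, 16 without 0h replicate 1 and 17 without 0h replicate 2. Psmd4, a ubiquitin receptor of the regulatory particle, had 212, 177, 149 and 214 TPM at 24h, against 122, 119, 125 and 116 TPM at 0h (log2 ratio 0.88 ± 0.16 SE, adjusted p = 0.0014). Psma7, a subunit of the core, had 249.97, 199, 162 and 243 TPM at 24h, against 136, 149, 149.6 and 161 TPM at 0h (log2 ratio 0.76 ± 0.16 SE, adjusted p = 0.0026). Psmd4 and Psma7 were both above 0h at 24h without overlap. The interferon-induced subunits were not called. Psmb8 had 15.2 ± 3.35 TPM at 24h and 19.2 ± 1.91 TPM at 0h (log2 ratio -0.13 ± 0.14 SE, adjusted p = 0.56), Psmb9 changed by -0.08 (adjusted p = 0.85) and Psmb10 by -0.18 (adjusted p = 0.35).

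In autophagy and mitophagy 14 of 36 rose and none fell (median 0.17, which was -0.05 in limma on log2(TPM + 1), where the median of all genes was -0.19). Bnip3, a receptor that tags mitochondria for removal, had 2268, 1275, 1024 and 1949 TPM at 24h, against 287, 332, 471 and 339 TPM at 0h, without overlap (log2 ratio 2.45 ± 0.36 SE, adjusted p = 0.00089). The ubiquitin-binding receptor Sqstm1 (log2 ratio 1.11 ± 0.16 SE, adjusted p = 7.4e-05) and the membrane tags Map1lc3b (log2 ratio 1.08 ± 0.17 SE, adjusted p = 0.00022) and Gabarapl1 (673, 330.3, 281 and 394 TPM at 24h, against 242, 221, 319 and 206 TPM at 0h; log2 ratio 1.02 ± 0.25 SE, adjusted p = 0.011) rose, the last with overlap through replicate 3. Atg13, of the kinase complex that starts autophagy, had 88.2, 70.9, 72 and 71.1 TPM at 24h, against 45.5, 40.04, 50.5 and 40.5 TPM at 0h (log2 ratio 1.0 ± 0.12 SE, adjusted p = 1.6e-05). The lysosomal protease Ctsl had 133 ± 29.8 TPM at 24h and 78.4 ± 6.37 TPM at 0h (log2 ratio 1.01 ± 0.19 SE, adjusted p = 0.0017). In Atg13 and Ctsl every 24h library lay above 0h. Among FOXO and atrophy genes 4 of 22 rose and 2 fell, with a median of 0.22 that was -0.03 in the same limma test, against -0.19 over all genes. The ubiquitin ligase Fbxo31 had 186, 122, 119 and 154 TPM at 24h, against 70.2, 67.9, 82.1 and 69.7 TPM at 0h (log2 ratio 1.25 ± 0.15 SE, adjusted p = 1.4e-05), Fbxo32, atrogin-1, rose less (log2 ratio 0.51 ± 0.16 SE, adjusted p = 0.030), and Trim63, MuRF1, was not called (log2 ratio 0.37 ± 0.19 SE, adjusted p = 0.18). The FOXO count was 7 without 24h replicate 2.

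Few genes of protein folding stress were called. Of 24 heat shock genes 1 rose, Bag3 (log2 ratio 0.48 ± 0.11 SE, adjusted p = 0.0057), and of 20 genes of the endoplasmic reticulum response 1 rose, Herpud1 (log2 ratio 0.76 ± 0.21 SE, adjusted p = 0.020). The integrated stress response had 6 of 22 higher and none lower (median 0.25), among them its transcription factor Atf4 (129.6, 151, 123 and 120.3 TPM at 24h, against 96.6, 102, 108 and 96.9 TPM at 0h; log2 ratio 0.59 ± 0.11 SE, adjusted p = 0.0011) and Eif4ebp1 (log2 ratio 0.78 ± 0.15 SE, adjusted p = 0.0019). Its frequent targets Ddit3 (log2 ratio 0.16 ± 0.21 SE, adjusted p = 0.65), Atf3 (log2 ratio 0.46 ± 0.30 SE, adjusted p = 0.32) and Asns (log2 ratio 0.24 ± 0.31 SE, adjusted p = 0.64) were not called.

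Mitochondrial energy genes rose by small amounts. Of 37 complex I genes 20 rose and none fell (median 0.40), and of 40 genes of complexes II to V 23 rose and none fell (median 0.43), by at most 0.68 (Ndufb8) and 0.68 (Atp5mg). With the length trend removed 13 and 13 were called. Ndufb8 had 56.7, 34.4, 32.2 and 50.5 TPM at 24h, against 33.1, 34.1, 30.7 and 30.9 TPM at 0h (log2 ratio 0.68 ± 0.20 SE, adjusted p = 0.028). Cox8b, a muscle form of a cytochrome c oxidase subunit, had 10671, 9013, 7098 and 10038 TPM at 24h, against 5929, 7276, 6574 and 7619 TPM at 0h (log2 ratio 0.66 ± 0.18 SE, adjusted p = 0.014). In both the groups overlapped through 24h replicate 3. The complex I count was 3 without 24h replicate 1 or 0h replicate 1, 31 without 24h replicate 3, 4 without 24h replicate 4, 13 without 0h replicate 2 and 7 without 0h replicate 3. For complexes II to V it was 6 without 24h replicate 1, 5 without 24h replicate 4, 7 without 0h replicate 1 or 3 and 14 without 0h replicate 2. Of 76 mitochondrial ribosome genes 22 rose and 1 fell, Mrpl19 (12.2, 13.6, 15.9 and 10.9 TPM at 24h, against 23.4, 24.4, 21.3 and 24.1 TPM at 0h; log2 ratio -0.62 ± 0.12 SE, adjusted p = 0.0013), with a median of 0.18 that was -0.04 in limma on log2(TPM + 1), against -0.19 over all genes. That count of rises was 8 without 24h replicate 1 or 0h replicate 1, 6 without 24h replicate 4, 13 without 0h replicate 2 and 9 without 0h replicate 3. Ppargc1b, a coactivator of mitochondrial genes, fell, with 7.82 ± 4.11 TPM at 24h and 19.98 ± 2.27 TPM at 0h (log2 ratio -1.17 ± 0.30 SE, adjusted p = 0.016). Ppargc1a had 38.7 ± 14.6 TPM at 24h and 54.5 ± 7.04 TPM at 0h (log2 ratio -0.29 ± 0.19 SE, adjusted p = 0.32). The 24h libraries were all below 0h in Ppargc1b and mixed with 0h in Ppargc1a.

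Amino acid breakdown had 12 of 28 higher and none lower (median 0.24), and 7 higher without 24h replicate 1. Cdo1, cysteine dioxygenase, on the route to taurine, had 97.8, 30.6, 16.8 and 30.6 TPM at 24h, against 5.92, 3.93, 2.29 and 3.2 TPM at 0h (log2 ratio 3.75 ± 0.54 SE, adjusted p = 0.00076), with replicate 1 far above the other 24h libraries. Sds, serine dehydratase, a fasting gene of the liver, had 4.44, 3.17, 2.25 and 3.02 TPM at 24h, against 0.147, 0, 0 and 0.194 TPM at 0h (79 counts at 24h against 2 at 0h, a ratio of 38.4 with a 95% counting interval of 10.3 to 323, adjusted p = 0.00038). Of the enzymes of branched-chain amino acid breakdown, Bckdhb rose (log2 ratio 0.73 ± 0.11 SE, adjusted p = 0.00023) and Dbt rose (log2 ratio 0.39 ± 0.13 SE, adjusted p = 0.036), a call lost without 6 of the 8 libraries. Glucose handling was mixed: 6 of 31 glycolysis and glucose uptake genes rose and 3 fell (median -0.03). Slc2a1, the insulin-independent transporter, had 15.3, 15.8, 19.8 and 18 TPM at 24h, against 14.7, 11.2, 14.6 and 12.7 TPM at 0h (log2 ratio 0.59 ± 0.12 SE, adjusted p = 0.0027). The insulin-responsive Slc2a4 had 183, 172, 320.5 and 184 TPM at 24h, against 312, 262, 321 and 302 TPM at 0h (log2 ratio -0.27 ± 0.14 SE, adjusted p = 0.17). Slc2a1 lay above 0h in every 24h library, and Slc2a4 overlapped. Pfkfb2, the cardiac regulator of phosphofructokinase, had 9.91, 12.3, 21.1 and 6.82 TPM at 24h, against 21.8, 23, 27.7 and 24.6 TPM at 0h (log2 ratio -0.77 ± 0.20 SE, adjusted p = 0.015). The glycolysis rises numbered 1 without 24h replicate 1 or 4 or 0h replicate 1 or 2, 2 without 0h replicate 3 and 3 without 0h replicate 4, and the falls 1 without 24h replicate 1 and 7 without 24h replicate 3.

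Among glycogen genes 3 of 20 rose and 1 fell. The largest rise was Phkg1, a phosphorylase kinase subunit (log2 ratio 0.96 ± 0.29 SE, adjusted p = 0.035), and the rises numbered 0 without 24h replicate 1, 5 without 24h replicate 2 and 1 without 0h replicate 1, 2 or 3. In NAD metabolism 3 of 19 rose and 1 fell: Nampt, which recycles nicotinamide, had 201, 189, 253 and 249 TPM at 24h, against 180.05, 189.7, 193 and 174 TPM at 0h (log2 ratio 0.50 ± 0.13 SE, adjusted p = 0.011). Nmrk2, the muscle nicotinamide riboside kinase, had 2.88, 1.53, 1.9 and 1.84 TPM at 24h, against 6.06, 6.1, 8.34 and 6.56 TPM at 0h (log2 ratio -1.47 ± 0.39 SE, adjusted p = 0.013). In Nmrk2 all 24h libraries lay below 0h, and Nampt overlapped. The one-carbon enzyme Aldh1l1 rose (log2 ratio 1.35 ± 0.24 SE, adjusted p = 0.00076). In the list of solute carriers 1 of 20 rose, Slc25a34, a mitochondrial carrier, with 620.1, 552, 516 and 494 TPM at 24h, against 322, 383, 358 and 316 TPM at 0h (log2 ratio 0.88 ± 0.12 SE, adjusted p = 3.8e-05), and 1 fell, the creatine transporter Slc16a12 (log2 ratio -0.74 ± 0.26 SE, adjusted p = 0.048).

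**Figure D4:**
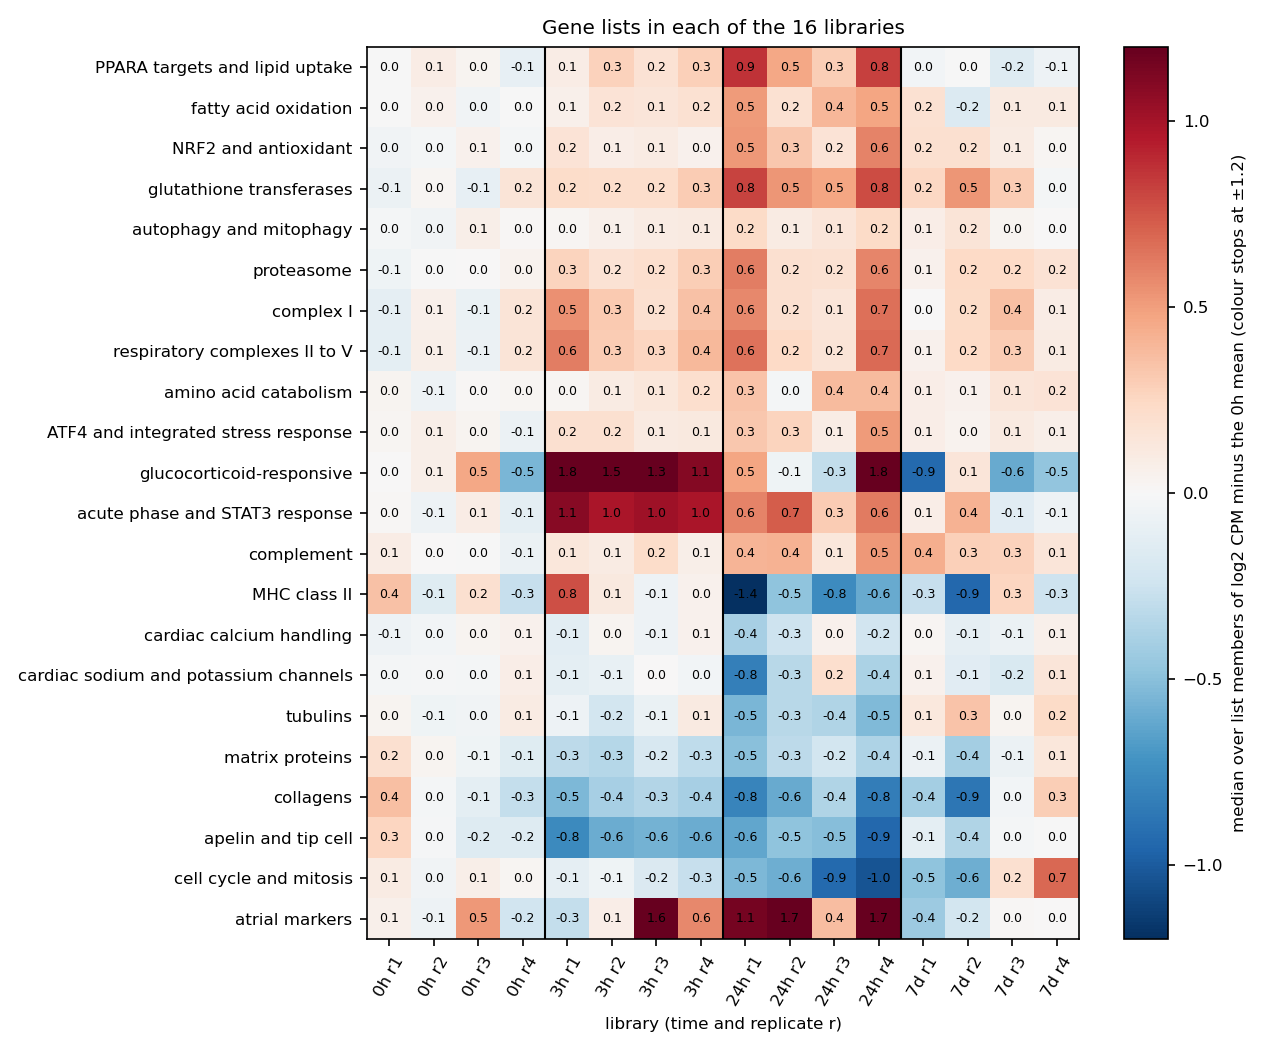
Median over the members of 22 lists of log2 CPM (library-size-scaled counts) minus the 0h mean, in all 16 libraries in order of time. The 24h columns are red for lipid, antioxidant, proteasome and respiratory chain lists and blue for collagen, tip cell and cell cycle lists, with PPARα targets and proteasome genes highest in 24h replicates 1 and 4; the atrial markers in the last row are high in 3h replicate 3 as well.

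The acute phase list had 13 of 31 higher and none lower (median 0.60), 8 without 24h replicate 1 or 0h replicate 1 or 2. Serpina3n, a protease inhibitor, had 185, 229, 109.7 and 216 TPM at 24h, against 18.4, 11.4, 20.6 and 8.92 TPM at 0h (log2 ratio 3.88 ± 0.33 SE, adjusted p = 1.5e-05). Lrg1 had 359, 322, 196 and 316 TPM at 24h, against 90.9, 92.8, 93.5 and 84.5 TPM at 0h (log2 ratio 1.96 ± 0.23 SE, adjusted p = 6.0e-05). In Serpina3n and Lrg1 every 24h library lay above 0h. Lcn2, which binds bacterial iron carriers, had 61.8, 57.3, 35.5 and 70.9 TPM at 24h, against 2.19, 2.71, 6.04 and 1.88 TPM at 0h (log2 ratio 4.43 ± 0.49 SE, adjusted p = 0.00013). Saa3, a serum amyloid A, was at a much lower level, with 1.49, 3.52, 0.901 and 3.6 TPM at 24h, against 0.0957, 0, 0 and 0 TPM at 0h (86 counts at 24h against 1 at 0h, a ratio of 83.7 with a 95% counting interval of 14.6 to 3340.00, adjusted p = 0.00016). Stat3 itself changed by 0.45 (adjusted p = 0.012), and its feedback inhibitor Socs3 had 13.6, 36.2, 8.73 and 10.2 TPM at 24h, against 7.25, 7.16, 7.7 and 5.0 TPM at 0h, with 24h replicate 2 far above the rest (log2 ratio 1.53 ± 0.47 SE, adjusted p = 0.042). Timp1, an inhibitor of matrix proteases, had 17.2, 78.3, 12.6 and 23.1 TPM at 24h, against 7.87, 6.55, 9.34 and 6.29 TPM at 0h, also led by replicate 2 (log2 ratio 2.3 ± 0.47 SE, adjusted p = 0.0038). Complement rose in 6 of 19 genes and fell in 1 (median 0.29). C4b, which may share reads with its copy C4a, had 20.7, 26.9, 17.8 and 18.3 TPM at 24h, against 8.76, 5.51, 13.4 and 4.67 TPM at 0h (log2 ratio 1.6 ± 0.33 SE, adjusted p = 0.0060). Every 24h library lay above 0h in C4b. C3 had 96.5 ± 16.4 TPM at 24h and 89 ± 38.1 TPM at 0h (log2 ratio 0.33 ± 0.18 SE, adjusted p = 0.22), and Cd55, which protects host cells, fell (log2 ratio -0.76 ± 0.14 SE, adjusted p = 0.0012).

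Neutrophil products rose, beside the marker sums given above. S100a8 had 22, 26.9, 20.3 and 97.9 TPM at 24h, against 0.719, 2.79, 4.89 and 1.89 TPM at 0h, with replicate 4 apart (log2 ratio 4.36 ± 0.98 SE, adjusted p = 0.010). S100a9 had 31.6, 64.8, 72 and 189.6 TPM at 24h, against 6.21, 4.34, 2.89 and 4.41 TPM at 0h (log2 ratio 4.51 ± 1.0 SE, adjusted p = 0.0097). Both genes lay above 0h in all 4 libraries at 24h. Retnlg, a neutrophil secretory protein, had 8.6, 15.5, 7.92 and 29.7 TPM at 24h, against 0.421, 0, 1.91 and 0 TPM at 0h (log2 ratio 4.94 ± 0.98 SE, adjusted p = 0.0035). The chemokine receptor Cxcr2 had 0.638, 0.934, 0.675 and 0.747 TPM at 24h, against 0.164, 0, 0 and 0.108 TPM at 0h (32 counts at 24h against 3 at 0h, a ratio of 10.4 with a 95% counting interval of 3.25 to 53, adjusted p = 0.017), while Mmp8, a neutrophil collagenase, overlapped (47 counts at 24h against 1 at 0h, a ratio of 45.7 with a 95% counting interval of 7.82 to 1840.00, adjusted p = 0.019). Chil3, found in monocytes and some macrophages, had 4.02, 2.13, 1.26 and 1.74 TPM at 24h, against 0.153, 0, 0 and 0 TPM at 0h (55 counts at 24h against 1 at 0h, a ratio of 53.5 with a 95% counting interval of 9.21 to 2150.00, adjusted p = 0.0023). It was the 1 rise among 21 monocyte and macrophage markers, whose sum was 1180 to 1820 TPM at 24h and 1610 to 1940 TPM at 0h. In the list of toll-like receptors and inflammasome genes 4 of 31 rose and 2 fell; the rises numbered 2 without 24h replicate 1 or any 0h replicate and 8 without 24h replicate 3. Il1b, an early inflammatory cytokine, had 2.67, 7.3, 2.46 and 0.447 TPM at 24h, against 1.05, 1.36, 0.989 and 1.55 TPM at 0h, and the groups overlapped (log2 ratio 1.53 ± 0.50 SE, adjusted p = 0.039).

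Of 33 chemokines and receptors 4 rose and 5 fell. Ccl17 had 0.472, 6.77, 0.571 and 4.43 TPM at 24h, against 0, 0, 0 and 0 TPM at 0h, at least 6.81-fold higher at 24h (floor of 3 counts over the group, adjusted p = 0.0083). Ccl2, which recruits monocytes, had 17.9, 100.02, 23.2 and 7.0 TPM at 24h, against 11.6, 9.66, 10.6 and 11.3 TPM at 0h, with replicate 2 above the rest and replicate 4 below 0h (log2 ratio 1.91 ± 0.56 SE, adjusted p = 0.033). Cxcl9, an interferon-γ target, fell (1.37, 4.72, 5.65 and 1.98 TPM at 24h, against 12.1, 8.47, 12.1 and 6.87 TPM at 0h; log2 ratio -1.36 ± 0.39 SE, adjusted p = 0.026), as did the scavenging receptor Ackr4 (1.17, 1.47, 1.91 and 1.8 TPM at 24h, against 3.11, 5.35, 6.8 and 4.95 TPM at 0h; log2 ratio -1.45 ± 0.26 SE, adjusted p = 0.00092). The rises numbered 2 without any 0h replicate, and the falls 3 without 24h replicate 1 or 0h replicate 1. Leukocyte adhesion genes rose in 1 of 21 (4.76%) and fell in 2 (9.52%), against 9.2% and 8.19% of all genes. Selp, P-selectin, rose from a low level of 0.171 to 0.226 TPM at 0h (log2 ratio 1.98 ± 0.54 SE, adjusted p = 0.015). Itga4 (log2 ratio -0.88 ± 0.24 SE, adjusted p = 0.015) and Jam2 (log2 ratio -0.42 ± 0.09 SE, adjusted p = 0.0043) fell. Vcam1 had 9.23 ± 2.62 TPM at 24h and 10.03 ± 2.11 TPM at 0h (log2 ratio 0.08 ± 0.20 SE, adjusted p = 0.83). Tnf had 1.93, 2.7, 1.25 and 0.347 TPM at 24h, against 0, 0.394, 0.23 and 2.81 TPM at 0h (log2 ratio 1.06 ± 0.76 SE, adjusted p = 0.36). Both genes overlapped between 24h and 0h.

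In the interferon-stimulated list 3 of 39 rose and 4 fell (median -0.29); the GTPase Iigp1 had 134, 118, 73.3 and 48.2 TPM at 24h, against 34, 26.4, 47.3 and 23.9 TPM at 0h (log2 ratio 1.73 ± 0.31 SE, adjusted p = 0.0028). Gbp3, another defence GTPase of the list, had 7.21, 17.8, 14 and 6.01 TPM at 24h, against 31.5, 21, 29.9 and 21.4 TPM at 0h (log2 ratio -1.03 ± 0.28 SE, adjusted p = 0.022). At 24h Iigp1 lay above 0h and Gbp3 below it, each without overlap. The falls numbered 1 without 24h replicate 1 or 4 or 0h replicate 1, 10 without 24h replicate 2, 2 without 24h replicate 3 and 0 without 0h replicate 3. Of 10 MHC class II genes 4 fell and none rose (median -0.79). Ciita, the master regulator of the class, had 0.153, 0.895, 0.954 and 0.0596 TPM at 24h, against 2.15, 1.15, 1.98 and 1.24 TPM at 0h (log2 ratio -1.52 ± 0.49 SE, adjusted p = 0.040), H2-Aa had 20.01, 55.9, 40.3 and 38.7 TPM at 24h, against 110.1, 81.9, 119 and 71 TPM at 0h (log2 ratio -1.1 ± 0.32 SE, adjusted p = 0.032). Cd74, the invariant chain, had 118, 235, 172 and 142 TPM at 24h, against 489, 319, 407 and 263 TPM at 0h (log2 ratio -0.94 ± 0.29 SE, adjusted p = 0.038). All 3 were without overlap, but the falls in the class numbered 0 without 24h replicate 1 or 4 or 0h replicate 1 or 3, 1 without 24h replicate 3 and 2 without 0h replicate 2. T, NK and B cell markers, 0 of 9 called, summed to 14.4 to 38.6 TPM at 24h and 35 to 47.5 TPM at 0h.

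Tip cells lead growing vessels, and apelin is among their products. Of 16 apelin and tip cell genes 7 fell and none rose (median -0.77). Apln, the peptide apelin, had 1.54, 3.11, 4.94 and 1.99 TPM at 24h, against 35.7, 26.7, 20.8 and 29.95 TPM at 0h, without overlap (log2 ratio -3.11 ± 0.45 SE, adjusted p = 0.00077). Its receptor Aplnr had 12, 25.5, 30.8 and 4.0 TPM at 24h, against 49.5, 41.7, 37.4 and 47.8 TPM at 0h, without overlap but with wide scatter (log2 ratio -1.13 ± 0.56 SE, adjusted p = 0.18). Angpt2, a vessel-loosening ligand, had 2.11, 2.31, 2.39 and 1.0 TPM at 24h, against 5.27, 4.56, 4.91 and 4.1 TPM at 0h (log2 ratio -1.06 ± 0.27 SE, adjusted p = 0.0086). The Notch ligand Dll4 had 12.6, 13.7, 13.9 and 9.23 TPM at 24h, against 30.9, 23.3, 23.8 and 19.5 TPM at 0h (log2 ratio -0.77 ± 0.13 SE, adjusted p = 0.00062). In Angpt2 and Dll4 every 24h library lay below 0h. The falls numbered 4 without 24h replicate 1 or 0h replicate 1. Among endothelial identity genes 5 of 27 rose and 4 fell (median 0.02). Kdr, the main VEGF receptor, had 38.2, 40.4, 39.6 and 16.4 TPM at 24h, against 90.7, 66.8, 72.5 and 65.4 TPM at 0h (log2 ratio -0.93 ± 0.26 SE, adjusted p = 0.024). The secreted ribonuclease Rnase1 had 21.8, 9.56, 9.77 and 24.1 TPM at 24h, against 3.27, 2.93, 0.38 and 2.32 TPM at 0h (log2 ratio 3.07 ± 0.51 SE, adjusted p = 0.00062). At 24h Kdr lay below 0h and Rnase1 above it, each without overlap. Its rises numbered 3 without 24h replicate 1 or 4 or 0h replicate 1 or 4, and its falls 2 without 24h replicate 1 and 1 without 0h replicate 1. Vegfa, the ligand, had 89.8, 167, 259.5 and 81 TPM at 24h, against 229.7, 258, 253 and 254 TPM at 0h (log2 ratio -0.57 ± 0.22 SE, adjusted p = 0.077).

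Cell cycle genes were expressed at low levels. Of 35 tested 9 fell and none rose (median -0.71). Top2a, which untangles DNA before division, had 0.216, 0.246, 0.13 and 0.0631 TPM at 24h, against 1.61, 1.04, 1.92 and 1.42 TPM at 0h (log2 ratio -2.94 ± 0.92 SE, adjusted p = 0.042). That call was lost whichever of the 8 libraries was left out. Kif11, a spindle motor, had 0.0976, 0.297, 0.118 and 0.152 TPM at 24h, against 0.936, 1.04, 0.657 and 0.837 TPM at 0h (log2 ratio -2.19 ± 0.53 SE, adjusted p = 0.0067). For either gene no 24h library reached the 0h range, and all were below it. The G1 cyclins stood at higher levels: Ccnd1 had 18.2, 34.6, 31.3 and 35.1 TPM at 24h, against 93, 78.1, 77 and 85.2 TPM at 0h (log2 ratio -1.27 ± 0.24 SE, adjusted p = 0.0025). Ccnd2 had 16.6, 32.2, 36.8 and 18.5 TPM at 24h, against 50.4, 44.3, 57.2 and 45.3 TPM at 0h (log2 ratio -0.74 ± 0.15 SE, adjusted p = 0.0019). Ccnd1 and Ccnd2 were both below 0h at 24h without overlap. Mki67, the proliferation marker, had 1.45, 0.817, 0.992 and 1.16 TPM at 24h, against 2.31, 2.51, 2.21 and 1.57 TPM at 0h (log2 ratio -0.71 ± 0.63 SE, adjusted p = 0.47). The falls numbered 4 without 24h replicate 1 or 4 or 0h replicate 1 or 4 and 5 without 0h replicate 2 or 3, and 3 with a stricter filter of a mean of 2 TPM.

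Collagens fell in 9 of 24 genes and rose in none (median -0.68). Col3a1, a fibrillar collagen, had 14.9, 39.5, 46.5 and 22 TPM at 24h, against 141, 94.4, 83.3 and 77.7 TPM at 0h (log2 ratio -1.51 ± 0.44 SE, adjusted p = 0.035). Col1a1, the main fibrillar chain, had 21.9, 37.5, 42.9 and 17.7 TPM at 24h, against 79.99, 53.3, 51.2 and 41.8 TPM at 0h (log2 ratio -0.73 ± 0.30 SE, adjusted p = 0.11). In Col3a1 all 24h libraries lay below 0h, and Col1a1 overlapped. The basement membrane chain Col4a4 had 1.83, 1.88, 1.88 and 1.96 TPM at 24h, against 5.78, 6.03, 5.72 and 4.61 TPM at 0h, the tightest of these (log2 ratio -1.33 ± 0.18 SE, adjusted p = 4.7e-05). The falls numbered 3 without 24h replicate 1 or 4, 14 without 24h replicate 3, 4 without 0h replicate 1 and 5 without 0h replicate 2, and 4 with the length trend removed. Fibroblast markers, 5 of 12 lower and 1 higher, summed to 2280 to 2510 TPM at 24h and 2180 to 3650 TPM at 0h. Of 38 other matrix proteins 10 fell and 2 rose (median -0.35). The small proteoglycan Aspn had 32.9, 34.4, 37.9 and 43.2 TPM at 24h, against 83.3, 82.9, 84.9 and 78.3 TPM at 0h (log2 ratio -0.93 ± 0.15 SE, adjusted p = 0.00046), Fbn1, fibrillin, had 16.6 ± 5.36 TPM at 24h and 30.6 ± 8.18 TPM at 0h (log2 ratio -0.69 ± 0.20 SE, adjusted p = 0.023), and Dcn, decorin, rose (564, 525, 395 and 497 TPM at 24h, against 476, 422, 367 and 342 TPM at 0h; log2 ratio 0.53 ± 0.14 SE, adjusted p = 0.0095). These falls numbered 17 without 24h replicate 3 and 5 without 0h replicate 1. Matrix proteases and inhibitors rose in 4 of 30 and fell in 6: Mmp3, stromelysin, had 45, 35.3, 19.9 and 54 TPM at 24h, against 10.5, 5.92, 3.35 and 2.92 TPM at 0h (log2 ratio 2.97 ± 0.46 SE, adjusted p = 0.0011). Mmp15, a membrane-bound protease, had 16.1, 29.996, 54.2 and 15.4 TPM at 24h, against 92.9, 71.1, 71.7 and 86 TPM at 0h (log2 ratio -1.31 ± 0.30 SE, adjusted p = 0.010). At 24h Mmp3 lay above 0h and Mmp15 below it, each without overlap. The falls numbered 3 without 0h replicate 1.

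Microtubules are built of tubulin. Of 21 tubulin genes and modifiers 10 fell and 1 rose (median -0.36), and 10 fell with the length trend removed. Tuba4a had 83.7, 117, 187 and 87 TPM at 24h, against 716, 572, 517 and 740.1 TPM at 0h (log2 ratio -2.24 ± 0.20 SE, adjusted p = 9.8e-07). Tuba1b had 40.9, 74.5, 64 and 36.2 TPM at 24h, against 155, 126, 103 and 125 TPM at 0h (log2 ratio -1.05 ± 0.15 SE, adjusted p = 0.00016). For either gene no 24h library reached the 0h range, and all were below it. Tubb2b (log2 ratio -1.05 ± 0.27 SE, adjusted p = 0.011) and Tubb5 (log2 ratio -0.47 ± 0.12 SE, adjusted p = 0.012) fell by less, and near-identical tubulin copies may share reads. Vash1, the enzyme that removes the terminal tyrosine of α-tubulin, had 7.85, 13.3, 11.9 and 7.22 TPM at 24h, against 40.3, 29.98, 27.7 and 34.1 TPM at 0h (log2 ratio -1.53 ± 0.25 SE, adjusted p = 0.00074). Svbp, its binding partner, had 89.4, 66.5, 59.8 and 84.1 TPM at 24h, against 50.4, 55.5, 56.7 and 68.5 TPM at 0h (log2 ratio 0.61 ± 0.20 SE, adjusted p = 0.039). In Vash1 all 24h libraries lay below 0h, and Svbp overlapped.

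Immediate early genes had 1 of 25 higher and 4 lower. Egr1 had 7.8, 11.9, 7.01 and 6.4 TPM at 24h, against 77.1, 21.4, 60.1 and 40.9 TPM at 0h (log2 ratio -2.37 ± 0.35 SE, adjusted p = 0.00082). Egr2 had 0.643, 1.02, 0.518 and 0.502 TPM at 24h, against 3.82, 2.0, 2.33 and 2.03 TPM at 0h (log2 ratio -1.71 ± 0.40 SE, adjusted p = 0.0057), while Fos had 5.16, 4.97, 3.49 and 5.2 TPM at 24h, against 12.9, 4.54, 10.3 and 5.31 TPM at 0h (log2 ratio -0.57 ± 0.34 SE, adjusted p = 0.26) and Ier3 rose with overlap (log2 ratio 1.04 ± 0.26 SE, adjusted p = 0.015). In Egr1 and Egr2 every 24h library lay below 0h. Of 35 insulin and growth factor genes 1 rose and 5 fell: Igf1 had 4.41, 6.0, 4.27 and 4.54 TPM at 24h, against 10.4, 8.13, 8.61 and 9.49 TPM at 0h (log2 ratio -0.72 ± 0.13 SE, adjusted p = 0.0011), the EGF-family ligand Btc had 0.484, 0.909, 0.974 and 0.252 TPM at 24h, against 3.2, 2.07, 1.59 and 2.33 TPM at 0h (log2 ratio -1.63 ± 0.35 SE, adjusted p = 0.0029), and Fgf1 rose (181, 166, 144 and 151 TPM at 24h, against 128, 130.2, 139.7 and 122 TPM at 0h; log2 ratio 0.53 ± 0.11 SE, adjusted p = 0.0024). In the TGF-β and BMP list 3 of 30, or 10%, fell, near the 8.19% of all genes. Among them was Bmp7, with 0.242, 0.551, 0.804 and 0.637 TPM at 24h, against 2.61, 0.965, 2.16 and 1.39 TPM at 0h (log2 ratio -1.47 ± 0.37 SE, adjusted p = 0.0085). Another was the inhibitor Skil (log2 ratio -0.59 ± 0.11 SE, adjusted p = 0.00082). Notch and Wnt genes fell in 5 of 31 and rose in 2 (median -0.26), with Notch1 at 8.38, 9.997, 11.6 and 7.53 TPM at 24h, against 19.2, 16.4, 17.3 and 12.2 TPM at 0h (log2 ratio -0.58 ± 0.13 SE, adjusted p = 0.0043) and Sfrp5, a secreted Wnt antagonist, at 3.2, 2.83, 1.55 and 1.65 TPM at 24h, against 0.657, 1.02, 0.397 and 0.692 TPM at 0h (log2 ratio 1.92 ± 0.54 SE, adjusted p = 0.017).

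In the cardiomyocyte's own machinery most genes were not called, as over all genes tested, of which 17.4% were called. Of 32 contractile and stress genes 3, or 9.38%, rose and 2, or 6.25%, fell, against 9.2% and 8.19% of all genes. Their median was 0.15, and -0.06 in limma on log2(TPM + 1), against -0.19 over all genes. Actc1, cardiac α-actin, had 4829, 6236, 9276 and 4973 TPM at 24h, against 15946, 13032, 15539 and 14067 TPM at 0h, without overlap (log2 ratio -1.01 ± 0.20 SE, adjusted p = 0.0022). Acta1, skeletal α-actin, had 566, 726, 628 and 617 TPM at 24h, against 496, 503, 2072 and 429 TPM at 0h (log2 ratio -0.24 ± 0.50 SE, adjusted p = 0.79). Actc1 lay below 0h in every 24h library, and Acta1 overlapped. Des, desmin, had 2213, 2093, 2184 and 2153 TPM at 24h, against 1587, 1606, 1472 and 1838 TPM at 0h (log2 ratio 0.63 ± 0.16 SE, adjusted p = 0.011). The adult α-myosin heavy chain Myh6 had 5523, 5570.5, 9707 and 6052 TPM at 24h, against 8802, 7615, 7446 and 8228 TPM at 0h (log2 ratio -0.05 ± 0.20 SE, adjusted p = 0.89). Myh7, the slow chain that returns under load, had 159, 216, 162 and 231 TPM at 24h, against 49.2, 38.3, 99.8 and 35.2 TPM at 0h, without overlap in TPM but not called (log2 ratio 2.02 ± 1.07 SE, adjusted p = 0.22). In Myh7 all 24h libraries lay above 0h, and Myh6 overlapped. The natriuretic peptides Nppa (763, 835, 469 and 469.7 TPM at 24h, against 452, 526, 1449.7 and 485 TPM at 0h; log2 ratio 0.02 ± 0.53 SE, adjusted p = 0.99) and Nppb (389, 1549, 813 and 199.5 TPM at 24h, against 946, 996, 1604 and 1466 TPM at 0h; log2 ratio -0.63 ± 0.56 SE, adjusted p = 0.48), markers of wall stress, overlapped widely. The contractile rises numbered 5 without 24h replicate 2.

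Calcium handling genes fell in 6 of 27, or 22.2%, and rose in 1 (median -0.14). Their median length was 6936 bases, and of the longest 20% of all genes 19% were called lower, with a median of -0.19. Casq2, the calcium buffer of the sarcoplasmic reticulum, had 519, 614, 947 and 544 TPM at 24h, against 1052, 1001, 1212 and 1119 TPM at 0h (log2 ratio -0.54 ± 0.15 SE, adjusted p = 0.013). Jph2, which holds that store against the surface membrane, had 207, 305, 496 and 236 TPM at 24h, against 523, 507, 561 and 516 TPM at 0h (log2 ratio -0.57 ± 0.15 SE, adjusted p = 0.013). Casq2 and Jph2 were both below 0h at 24h without overlap. Itpr1 had 4.81, 7.09, 8.89 and 5.08 TPM at 24h, against 14.3, 12.6, 12.5 and 9.72 TPM at 0h (log2 ratio -0.73 ± 0.13 SE, adjusted p = 0.00088). In Casq2 and Jph2, 24h replicate 3 was the closest to 0h. The pump Atp2a2 (log2 ratio -0.12 ± 0.17 SE, adjusted p = 0.66) and the release channel Ryr2 (log2 ratio -0.35 ± 0.24 SE, adjusted p = 0.35) were not called. The falls numbered 3 without 24h replicate 1 and 10 without 24h replicate 3. Of 31 sodium and potassium channel genes 2 fell, among them Kcnd2 (log2 ratio -0.61 ± 0.20 SE, adjusted p = 0.044), and none rose (median -0.24). For the cardiac sodium and potassium channels the falls numbered 1 without 24h replicate 1, 2 or 4 or 0h replicate 1, 2 or 3 and 11 without 24h replicate 3, and the median was -0.41 without 24h replicate 3 and -0.14 without 24h replicate 1. Adrenergic and muscarinic genes rose in 2 of 29 and fell in 2; the falls numbered 0 without 24h replicate 1 or 4 or 0h replicate 4, 6 without 24h replicate 3 and 1 without 0h replicate 1, 2 or 3, and the rises 1 without 24h replicate 1 or 4 or any 0h replicate. Grk5, a kinase that desensitises β-adrenergic receptors, had 31.6, 52.3, 39.4 and 33.3 TPM at 24h, against 26.1, 24, 26.3 and 23.4 TPM at 0h (log2 ratio 0.85 ± 0.12 SE, adjusted p = 9.4e-05), the cyclase Adcy5 fell (log2 ratio -0.48 ± 0.14 SE, adjusted p = 0.019). The receptor Adrb1 had 17.1, 18.8, 28 and 7.73 TPM at 24h, against 25.2, 21.4, 20.6 and 22.5 TPM at 0h (log2 ratio -0.14 ± 0.23 SE, adjusted p = 0.72). The groups overlapped in Adcy5 and Adrb1.

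Of 25 glucocorticoid-responsive genes 4, or 16%, rose, against 9.2% of all genes, and none fell. The 4 were Mt1, Mt2 and Lcn2, given above, and the sulfotransferase Sult1a1 (308, 184, 166 and 296 TPM at 24h, against 101, 109, 115 and 76.6 TPM at 0h; log2 ratio 1.51 ± 0.38 SE, adjusted p = 0.018). Fkbp5, a sensitive target of the receptor, had 39.4, 19.6, 13.2 and 65.3 TPM at 24h, against 14.8, 17.4, 25.8 and 8.34 TPM at 0h, high in replicates 1 and 4 only (log2 ratio 1.35 ± 0.59 SE, adjusted p = 0.14). Tsc22d3, GILZ, had 65.9, 58.1, 61.3 and 136 TPM at 24h, against 107, 97.1, 115 and 56.3 TPM at 0h (log2 ratio 0.04 ± 0.31 SE, adjusted p = 0.95). Both genes overlapped between 24h and 0h. Without 24h replicate 3, 9 of the list were called higher. The median over the glucocorticoid-responsive genes was 0.81, and it was 1.06 without 24h replicate 3 and 0.30 without 24h replicate 4. Relative to the 0h mean, the list's median log2 CPM was 0.471, -0.0551, -0.295 and 1.78 in 24h replicates 1 to 4, so that replicate 4 stood above the others. Of 19 clock genes 2 rose, among them the clock repressor Cry2 (log2 ratio 0.64 ± 0.13 SE, adjusted p = 0.0023), and 1 fell, Rora (log2 ratio -0.35 ± 0.11 SE, adjusted p = 0.031). The core genes Bmal1 (log2 ratio -0.17 ± 0.27 SE, adjusted p = 0.70), Nr1d1 (log2 ratio 0.02 ± 0.13 SE, adjusted p = 0.94) and Per1 (log2 ratio 0.35 ± 0.37 SE, adjusted p = 0.56) were not called.

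Of 23 hypoxia genes 4 rose, Bnip3 with the largest change, and 3 fell, among them the oxygen sensor Egln3 (35.6, 57.1, 85 and 44.9 TPM at 24h, against 97.2, 96.2, 87.4 and 128 TPM at 0h; log2 ratio -0.70 ± 0.18 SE, adjusted p = 0.014); the falls numbered 1 without 24h replicate 1 or 4 or 0h replicate 3 and 5 without 24h replicate 3. Among 27 p53 targets 1 rose, Fas (65.5, 52.9, 26.8 and 57.6 TPM at 24h, against 35.1, 34.3, 40.1 and 22.3 TPM at 0h; log2 ratio 0.87 ± 0.26 SE, adjusted p = 0.033), and 2 fell, Gadd45a (log2 ratio -0.57 ± 0.15 SE, adjusted p = 0.012) and Zmat3 (log2 ratio -0.49 ± 0.14 SE, adjusted p = 0.018). Cdkn1a, the cell cycle inhibitor p21, had 104, 50.7, 24.6 and 157 TPM at 24h, against 53.9, 42.5, 65.9 and 17.7 TPM at 0h (log2 ratio 1.21 ± 0.58 SE, adjusted p = 0.17). In the list of 28 cell death genes Fas rose and Ripk3, Bcl2 and Casp9 fell, Bcl2, a survival factor, with 2.02, 3.14, 4.17 and 3.51 TPM at 24h, against 8.15, 6.18, 8.24 and 6.14 TPM at 0h (log2 ratio -0.95 ± 0.19 SE, adjusted p = 0.0021); without 0h replicate 1 there was 1 such fall. Coagulation genes rose in 1 of 19 (5.26%) and fell in 2 (10.5%), and NF-κB targets rose in 1 of 23 and fell in 1 (4.35% each). Over all genes 9.2% rose and 8.19% fell. Of 17 named long noncoding RNAs 3 rose and 4 fell. H19 had 85.5, 113, 85.6 and 71.5 TPM at 24h, against 32.1, 60.4, 33.4 and 53.1 TPM at 0h (log2 ratio 1.19 ± 0.26 SE, adjusted p = 0.0081). Malat1 had 813, 1083, 902 and 681 TPM at 24h, against 1298, 1454, 1497 and 1449.9 TPM at 0h (log2 ratio -0.51 ± 0.15 SE, adjusted p = 0.021). At 24h H19 lay above 0h and Malat1 below it, each without overlap. The strand setting of the counting is not given in the sources used here, so RNAs that overlap other genes, such as Kcnq1ot1 (log2 ratio -0.87 ± 0.17 SE, adjusted p = 0.0015), are uncertain. The rises numbered 6 without 24h replicate 3, and the falls 2 without 0h replicate 1.

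The genes with the largest changes of all were picked by a rule, which 1604 genes met. They had to be called, with a mean of at least 2 TPM in 1 of the groups, no overlap in TPM and a proper gene name. No overlap was thus a condition for these genes, here and where they are named above, and adds no support. Among the 15 largest rises were Saa3, Ccl17, Chil3, Sds, Retnlg, S100a9, Lcn2, S100a8, Ttr, Hamp, Serpina3n, Cstdc2, Cdo1 and Slc22a12. Those not yet given are Ttr, transthyretin (11.7, 4.8, 1.24 and 9.83 TPM at 24h, against 0.842, 0, 0.636 and 0 TPM at 0h; log2 ratio 4.32 ± 1.13 SE, adjusted p = 0.018), Slc22a12, a urate transporter (2.58, 1.96, 0.389 and 3.27 TPM at 24h, against 0.221, 0.143, 0.333 and 0 TPM at 0h; log2 ratio 3.71 ± 0.78 SE, adjusted p = 0.0026), and Cstdc2 (31 counts at 24h against 2 at 0h, a ratio of 15.1 with a 95% counting interval of 3.84 to 130.00, adjusted p = 0.0040). Ttr was the 1 call among 13 hepatocyte markers tested. The table lists 20 such markers, of which 6 were at 0 in all 24h libraries and 8 in all 0h libraries.

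The 15 largest falls were Upk3b, Mir5107, Apln, Sost, Ces2e, Akap5, Egr1, Tuba4a, Kit, Klra9, Ntmt2, Tfrc, Nherf4, Ccnb2 and Mycn. Upk3b is a mesothelial marker (0.0688, 0, 0.166 and 0.242 TPM at 24h, against 0.707, 2.66, 3.85 and 4.47 TPM at 0h; log2 ratio -4.27 ± 0.81 SE, adjusted p = 0.0017), and Mir5107, a microRNA gene counted from 8 reads at 0h and 0 at 24h, was at least 2.74-fold lower (adjusted p = 0.049). Sost, the Wnt inhibitor sclerostin, had 0.118, 0.306, 0.568 and 0.413 TPM at 24h, against 3.14, 4.85, 0.73 and 2.23 TPM at 0h (log2 ratio -2.75 ± 0.65 SE, adjusted p = 0.0062). Kit, the receptor for stem cell factor, had 0.60, 0.355, 0.461 and 0.383 TPM at 24h, against 3.22, 2.65, 1.69 and 2.21 TPM at 0h (log2 ratio -2.2 ± 0.33 SE, adjusted p = 0.00015). Mycn, a growth transcription factor, had 0.958, 2.02, 2.23 and 0.518 TPM at 24h, against 8.03, 4.02, 4.92 and 5.69 TPM at 0h (log2 ratio -1.81 ± 0.42 SE, adjusted p = 0.0060). Kit and Mycn were both below 0h at 24h without overlap, as the rule required. Nherf4, a scaffold protein with PDZ domains, had 1.66, 3.89, 2.54 and 1.81 TPM at 24h, against 9.21, 12.2, 11.9 and 9.14 TPM at 0h (log2 ratio -1.91 ± 0.25 SE, adjusted p = 4.0e-05). Akap5, an anchor for protein kinase A, had 0.178, 0.834, 0.731 and 0.50 TPM at 24h, against 5.05, 2.98, 2.21 and 3.32 TPM at 0h (log2 ratio -2.43 ± 0.57 SE, adjusted p = 0.010). The remaining log2 ratios were -2.54 for the carboxylesterase Ces2e, -2.12 for Klra9, whose Ly49 family holds near-identical copies, -2.02 for the methyltransferase Ntmt2 and -1.89 for the mitotic cyclin Ccnb2.

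The other 2 times place these changes. The contrasts of 24h with 3h and with 7d share the 24h libraries with the contrast above, and the genes were chosen for their 24h value, so the counts are a description. At 24h against 3h 7.58% of all genes were called, 4.03% higher and 3.56% lower, and at 24h against 7d 8.08% were, 4.34% higher and 3.74% lower. Of the 15 largest rises 5 were also called higher at 24h than at 3h and 11 higher than at 7d. Of the 15 largest falls 6 and 12 were called lower. None of the 30 was called in the opposite direction.

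Some genes differed at 24h from all other times. Pnpla2 had 417 ± 21.9 TPM at 3h and 364 ± 91.4 at 7d (24h over 3h, log2 1.17 ± 0.13, adjusted p = 6.5e-06; 24h over 7d, 1.46 ± 0.13, adjusted p = 3.2e-07). Tuba4a had 745 ± 67.9 TPM at 3h and 715 ± 187 at 7d (-2.65 ± 0.20, adjusted p = 3.6e-07; -2.49 ± 0.20, adjusted p = 3.2e-07). Tfrc (-2.4 ± 0.37, adjusted p = 0.0019; -2.23 ± 0.37, adjusted p = 0.0025), Gclm (1.52 ± 0.14, adjusted p = 5.6e-07; 1.58 ± 0.14, adjusted p = 3.2e-07), Bnip3 (2.01 ± 0.35, adjusted p = 0.0043; 1.95 ± 0.35, adjusted p = 0.0045), Apln (-2.39 ± 0.46, adjusted p = 0.0068; -2.63 ± 0.45, adjusted p = 0.0031) and Rnase1 (4.92 ± 0.64, adjusted p = 8.3e-05; 3.43 ± 0.52, adjusted p = 0.00034) were also called at 24h against both. Actc1 was lower at 24h than at either time as well (-1.06 ± 0.20, adjusted p = 0.0026; -0.99 ± 0.20, adjusted p = 0.0040).

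Others were not called between 24h and 3h. Egr1 had 13.2, 8.04, 7.98 and 9.52 TPM at 3h and 9.69, 7.95, 14.2 and 9.11 TPM at 7d, and the 24h level was not called different from either (-0.22 ± 0.36, adjusted p = 0.79; -0.20 ± 0.35, adjusted p = 0.80). Retnlg had 62.7, 26.1, 13.9 and 19.3 TPM at 3h (-0.97 ± 0.56, adjusted p = 0.35) and 1.51, 5.82, 1.68 and 0.811 TPM at 7d (2.71 ± 0.72, adjusted p = 0.030). Mt2 had 1100.3, 827, 827 and 686 TPM at 3h (0.87 ± 0.59, adjusted p = 0.45) and 157, 216, 95.3 and 80.5 TPM at 7d (3.6 ± 0.66, adjusted p = 0.0061). In contrast, Il4ra, the interleukin-4 receptor, was lower at 24h than at 3h (-1.12 ± 0.20, adjusted p = 0.0030) though higher than at 0h (log2 ratio 0.66 ± 0.21 SE, adjusted p = 0.040). Kdr had 27.5 ± 6.17 TPM at 3h, 64.2 ± 22.9 at 7d and was not called at 24h against either (0.32 ± 0.26, adjusted p = 0.53; -0.82 ± 0.26, adjusted p = 0.068).

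**Figure D5:**
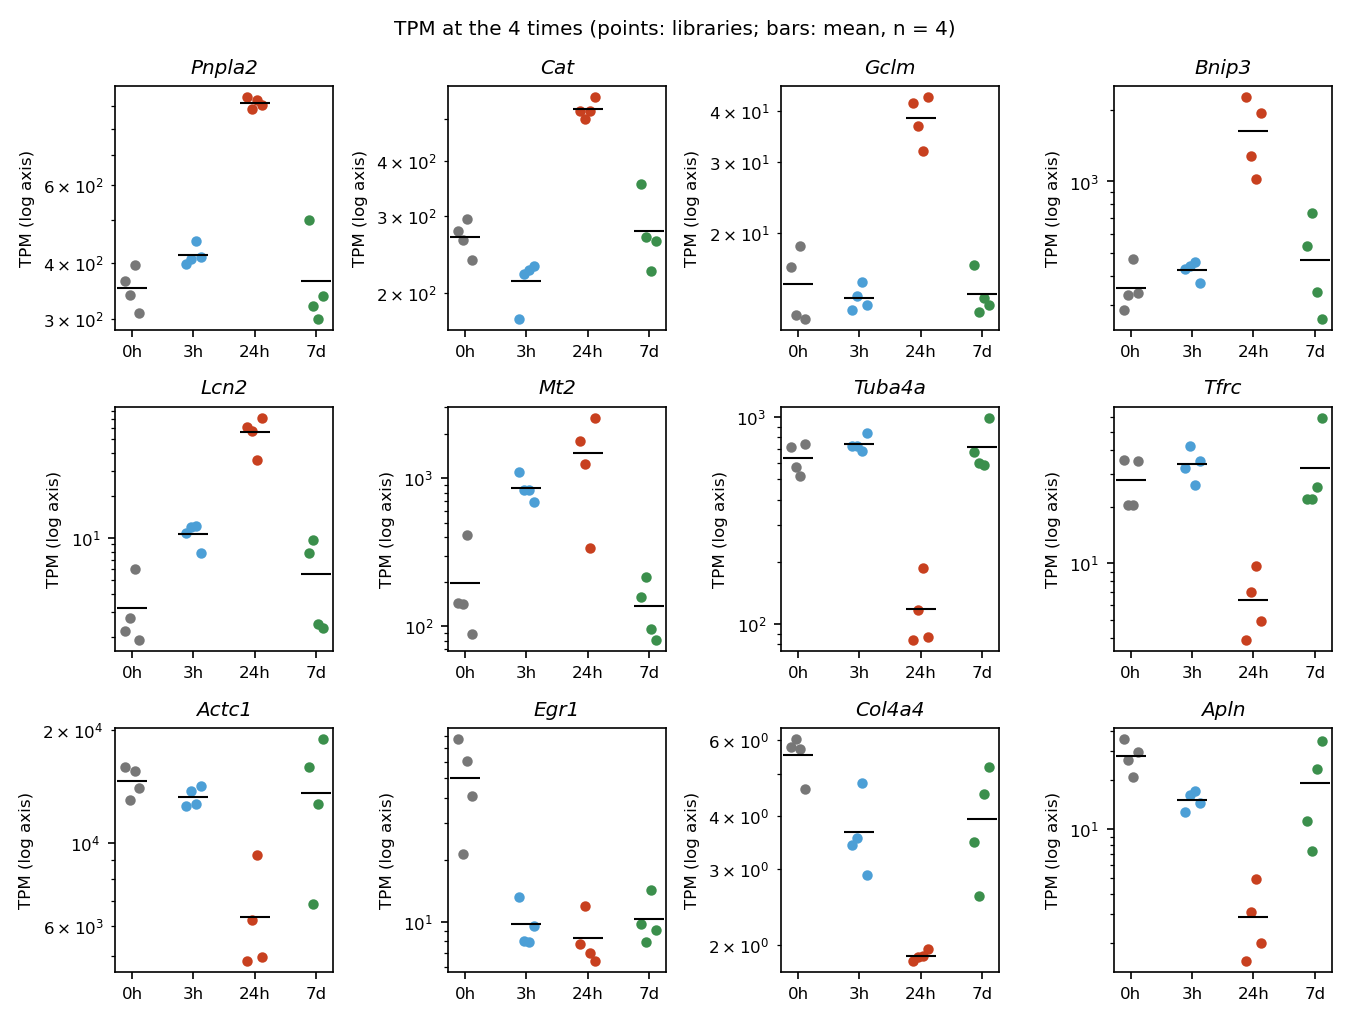
TPM on a log axis of 12 genes at 0h, 3h, 24h and 7d, each point a library and each bar the mean of 4. Pnpla2, Cat, Gclm and Bnip3 have their highest mean at 24h, Tuba4a, Tfrc, Actc1, Col4a4 and Apln have their lowest mean there, Mt2 and Lcn2 are already above 0h at 3h, and Egr1 has its highest mean at 0h.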

How the data were processed

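RNA was taken from the left ventricle with TRIzol and DNase and made into NEBNext Ultra II Directional libraries from polyA RNA, per the labels' protocols. Reads were trimmed with cutadapt and aligned with STAR to mm10, per the submitters' processing notes. The strand setting of the counting is not given in the sources used here. The deposited table holds the authors' raw counts per gene, and their TPM and FPKM values, in columns whose prefix is not the one in the titles, so columns were matched by time and replicate number. The authors' FPKM values were not used, and the authors' TPM values served for filtering, for levels and in limma.

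Genes with a mean of 0.5 TPM or more were tested, 16866 in all. A further 769 genes with a mean from 0.4 to 0.5 TPM were not, while 588 tested genes lay between 0.5 and 0.6 TPM, of which 24 were called. Counts of all 16 libraries were fitted in edgeR 4.0.16 (R 4.3.3) with TMM scaling, robust quasi-likelihood F tests, time as a factor of 4 levels and no replicate term. P-values were adjusted by Benjamini-Hochberg over all genes tested, at 0.05, and the method was tested on simulated data. Each SE is the size of the log2 ratio divided by the root of the F statistic. The text names the 15 largest rises and 15 largest falls among called genes with a mean of 2 TPM or more in 1 group and no overlap, which also have a proper gene name, and members of gene lists; a few such genes are not reported here. The comparison, the lists and the members named were chosen with earlier results of these data known. Alternatives were DESeq2 1.42.0, limma 3.58.1 on log2(TPM + 1) and log2(TPM + 0.1), other scalings and filters, the compared groups alone, a replicate term, log Myl7 as a covariate and each library left out. Counting intervals are exact at 95%, floors are 3 counts over a group, and both cover counting error only.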

Additional observations from a re-analysis of the deposited data

Results flagged for a closer look

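A library was marked where its gap to the nearest of the other 3 libraries of its group, divided by the group's range, passed 0.829, which chance does in about 1 of 20 groups. Among the 199 genes named here, 31 of 398 groups of 4 were so marked, 15 at 24h and 16 at 0h. Each value below stands beside the range of the other 3 libraries of its group.

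24h replicate 1 lay above the others with 88.2 TPM for Atg13 against 70.9 to 72 and 97.8 TPM for Cdo1 against 16.8 to 30.6. 24h replicate 2 lay above the others with 78.3 TPM for Timp1 against 12.6 to 23.1 and 6.0 TPM for Igf1 against 4.27 to 4.54. 24h replicate 3 lay above the others with 320.5 TPM for Slc2a4 against 172 to 184, 183 TPM for Ryr2 against 72 to 87.7, 29.6 TPM for Ppara against 9.37 to 12.7 and 60.4 TPM for Ppargc1a against 29.6 to 33.6. It also had 8392 TPM for Atp2a2 against 4145 to 4719.5 and 9707 TPM for Myh6 against 5523 to 6052. 24h replicate 3 lay below the others with 3.49 TPM for Fos against 4.97 to 5.2. 24h replicate 4 lay above the others with 136 TPM for Tsc22d3 against 58.1 to 65.9 and 97.9 TPM for S100a8 against 20.3 to 26.9. 24h replicate 4 lay below the others with 0.105 TPM for Ces2e against 0.63 to 0.703 and 16.4 TPM for Kdr against 38.2 to 40.4.

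0h replicate 1 lay above the others with 20.4 TPM for Cd55 against 15.5 to 16.2, 0.0957 TPM for Saa3 against 0, 0.153 TPM for Chil3 against 0 and 0.609 TPM for Hamp against 0. It also had 14.2 TPM for Mir5107 against 3.67 to 4.29. 0h replicate 2 lay above the others with 0.133 TPM for Mmp8 against 0. 0h replicate 2 lay below the others with 109.9 TPM for Nr1d1 against 117 to 118 and 13.9 TPM for Cry2 against 16.9 to 17.3. 0h replicate 3 lay above the others with 9.59 TPM for Myl7 against 0 to 1.1, 42 TPM for Ppara against 28.9 to 30.6, 2072 TPM for Acta1 against 429 to 503 and 1449.7 TPM for Nppa against 452 to 526. It also had 82.1 TPM for Fbxo31 against 67.9 to 70.2. 0h replicate 3 lay below the others with 0.171 TPM for Selp against 0.22 to 0.226. 0h replicate 4 lay above the others with 2.81 TPM for Tnf against 0 to 0.394. 0h replicate 4 lay below the others with 1.34 TPM for Ces2e against 4.07 to 4.53. Where the other 0h libraries held no read, as in Saa3, Chil3, Hamp and Mmp8, the marked value rests on 1 count.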

How the results depend on the processing

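At 24h against 0h, 2933 genes were called, 1552 higher and 1381 lower. Counts within 1.5 times of that came from RLE scaling (2925), upper-quartile scaling (2941), no filter (3437), a mean of 2 TPM or more (2921), no robust step (2974), the compared groups alone (2129), DESeq2 (3542) and removal of the length trend, chosen after seeing the data (2541). With log Myl7 as a covariate 86 were called, 51 higher and 35 lower, and the cause was not tested. Library totals without TMM gave 3160, split into 968 higher and 2192 lower. Limma gave 3543 on log2(TPM + 1), with 643 higher and 2900 lower, and 3460 on log2(TPM + 0.1), with 622 higher and 2838 lower. With replicate 3 kept as the sole library of 24h, a setting chosen after seeing the data in which it is assumed to vary like the other groups, 131 were called, 97 higher and 34 lower. When 3h replicate 3 was left out as well, 120 were called, 90 higher and 30 lower. Leaving out 1 library gave 1575 to 4262 calls, 849 to 2183 higher and 726 to 2079 lower, with the lowest without 24h replicate 1 and the highest without 24h replicate 3.

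At 24h against 3h (1279 calls), the compared groups alone gave 812, the Myl7 covariate 539, the lone 24h replicate 3 gave 607, and leaving out 1 library 756 to 1644. At 24h against 7d (1363 calls) these were 354, 23, 86 and 755 to 2407. With a replicate block the counts were 2572 at 24h against 0h, 1069 against 3h and 1168 against 7d. Same-numbered 24h and 0h libraries had deviations correlated by -0.0171 to 0.0127. Libraries with unlike numbers were not set beside them, so whether the numbers pair libraries is not known. Under the block 0 MHC class II genes were called lower and 5 hypoxia response genes were.

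In the lists, the largest shifts were in genes called higher. In complex I, of 20 higher, library totals without TMM gave 9, limma on log2(TPM + 1) gave 4 and the compared groups alone 8. For respiratory complexes II to V the 23 became 12, 8 and 13, and for the proteasome the 26 became 16, 9 and 17. The 16 of NRF2 and antioxidant genes became 10, 9 and 10. The 9 collagens called lower became 16, 17 and 12. With the Myl7 covariate no list had more than 3 higher (PPARA targets and lipid uptake) or 1 lower (collagens). With 24h replicate 3 alone these were 4 and 2 (tubulins).

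Of 161 called genes named here, 107 kept their call whichever single library was left out, and none changed sign. The 54 others lost it without at least 1 library, 43 of them without 24h replicate 1, and 35 without 4 or more. Those 35 were Acadm, Acadvl, Ccl2, Ccnb2, Cd74, Ciita, Col3a1, Cxcl9, Dbt, Fas, Fbn1, Fbxo32, Gbp3, H2-Aa, Hamp, Herpud1, Il1b, Il4ra, Kcnd2, Malat1, Mir5107, Mmp8, Myl7, Ncoa4, Ndufb8, Phkg1, Plin4, Plin5, Psmb3, Rora, Slc16a12, Slc30a5, Socs3, Svbp and Top2a. The Myl7 covariate took the call from 145 named genes and reversed none. With 24h replicate 3 alone, with and without 3h replicate 3, the log2 ratio was -0.047 and -0.046 for Hmox1, -1.60 and -1.61 for Mmp8, 0.0095 and 0.0094 for Jph2, -0.016 and -0.016 for Ehhadh, and -0.20 in both for Fas, each opposite in sign to the value with all libraries. No other setting reversed a called gene named here.

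Genes under about 2 TPM rest on few counts, and with 4 libraries a group small differences are not detectable. The 0h animals carry the surgery label too, and cell makeup was seen only through the marker sums.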
